A study of Tupaia belangeri with 6 samples.

Results

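The genes described here mark the blood vessels of the brain and their barrier in the tree shrew (Tupaia belangeri) prefrontal cortex (PFC). They were a fixed list of 10 gene names, with 8 endothelial or barrier genes (CLDN5, FLT1, PECAM1, CDH5, SLC2A1, MFSD2A, ABCB1 and VWF) and 2 pericyte genes (PDGFRB and RGS5). A gene was taken where its name in the abundance tables equalled the member, and numbered gene-like copies (names ending in li and a number) were not counted as members. Of the 10 names, 8 were found among the 95863 genes of the tables. No gene carries the name ABCB1 (P-glycoprotein, a drug efflux pump of the barrier) or RGS5 (a regulator of G protein signalling that is widely used as a pericyte marker) in the tables used here, so both were not analysed here. The pericyte side therefore rests on PDGFRB alone.

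RNA was sequenced from the PFC of 6 adult tree shrews with no treatment or transgene. They were 3 females, here called female 1, 3 and 4, and 3 males, called male 1, 4 and 5. The males were all older than the females by the study's sample list, which gives no unit, and the effects of age and sex cannot be told apart. Each library is 1 animal, and polyadenylated RNA of the whole tissue piece was sequenced. Levels are given in TPM (a relative measure scaled for transcript length and for the library), which keeps no sequencing depth, so no counting interval was computed.

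Endothelial cells line the vessels of the brain, and tight junctions, a low rate of transport through vesicles and a set of transporters make that lining a barrier between blood and nervous tissue. Pericytes sit on the outer face of capillaries in the same basement membrane. Endothelial PDGFB recruits them through the receptor PDGFRB, and they help to maintain the barrier. In bulk tissue a lower value of such a gene can come from fewer cells of a type or from less of its RNA per cell, and these cannot be told apart.

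The libraries carried the markers of cortical tissue, with a mean of 4188 TPM for the presynaptic gene SNAP25 and 1165 TPM for SLC17A7, the vesicular glutamate transporter of excitatory neurons. The loci to which the authors' assembly gave no strand held 2.30% to 3.33% of all TPM in the females, 2.67% in male 4, 5.16% in male 1 and 7.88% in male 5. Summed over the blood list, hemoglobin and other red cell genes reached 1288 to 2553 TPM in each female but 68.9 to 112 TPM in each male.

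All 7 members with a value above 0 were present in every animal, and endothelial genes spanned a wide range above and below PDGFRB. In order of the mean over 6 animals, the levels were 316 TPM for PECAM1, 98.0 TPM for SLC2A1, 35.8 TPM for CLDN5, 27.3 TPM for FLT1, 14.9 TPM for CDH5, 14.7 TPM for PDGFRB and 7.19 TPM for VWF. MFSD2A was listed at 0 in all 6 animals. Among the 27751 genes with a mean of at least 1 TPM, 98.3% had a lower mean than PECAM1, 83.1% a lower mean than CLDN5 and 63.5% a lower mean than VWF.

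SLC2A1 encodes GLUT1, the glucose transporter of the brain endothelium, which astrocytes also express. It lies on the plus strand of chromosome 7 (47572235 to 47611971 in the assembly TS_3.0). SLC2A1 stood at 117, 82.1 and 81.7 TPM in females 1, 3 and 4, against 82.5, 85.9 and 139 TPM in males 1, 4 and 5. Female 1 and male 5 stood above the other 4 animals, which lay between 81.7 and 85.9 TPM, and the sexes overlapped. An unnamed locus on the opposite strand spans the whole gene and was listed at 19.2 to 27.6 TPM. The library protocol names no step that keeps the strand, so reads of such overlapping loci may be shared.

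CLDN5 encodes claudin-5, the main tight junction claudin of brain endothelium. It lies on the plus strand of chromosome 22 (401054 to 407019). CLDN5 stood at 45.2, 33.5 and 60.7 TPM in females 1, 3 and 4, against 23.4, 28.9 and 23.2 TPM in males 1, 4 and 5. Every female was above every male, and female 4 was the highest animal.

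FLT1 encodes VEGFR1, a high-affinity receptor that binds VEGFA and limits its signal. It lies on the plus strand of chromosome 8 (25326164 to 25531673). FLT1 stood at 27.1, 30.5 and 31.7 TPM in females 1, 3 and 4, against 24.7, 23.2 and 26.8 TPM in males 1, 4 and 5. The lowest female lay just above the highest male, and the mean of 27.3 ± 3.29 TPM (SD, n = 6) varied least, relative to its size, of the 7 measured members. The copy PAN3li1 overlaps FLT1 on the opposite strand, at 9.22 to 16.0 TPM.

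CDH5 encodes VE-cadherin, the adherens junction cadherin of endothelium. It lies on the plus strand of chromosome 21 (7102226 to 7140532). CDH5 stood at 18.2, 11.3 and 12.5 TPM in females 1, 3 and 4, against 10.3, 13.7 and 23.5 TPM in males 1, 4 and 5. As for SLC2A1, male 5 and then female 1 were the highest, and the sexes overlapped.

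PECAM1 encodes CD31, an adhesion molecule of endothelial cells, platelets and leukocytes. It lies on the plus strand of chromosome 15 (58023260 to 58379285), a locus of 356026 bp that overlaps 19 other loci, 15 on the opposite strand and 4 without one. PECAM1 stood at 277, 347 and 252 TPM in females 1, 3 and 4, against 355, 252 and 409.6 TPM in males 1, 4 and 5. Female 4 and male 4 were the lowest and male 5 the highest.

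VWF encodes von Willebrand factor, the clotting protein stored by endothelial cells. The gene of that name lies on the plus strand of chromosome 6 (34784758 to 35280338), across 495581 bp. VWF stood at 7.56, 9.50 and 7.33 TPM in females 1, 3 and 4, against 4.12, 6.45 and 8.17 TPM in males 1, 4 and 5. Male 1 was the lowest, and male 5 lay between the females.

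PDGFRB, the receptor through which pericytes are recruited, lies on the minus strand of chromosome 18 (36527357 to 36566286). PDGFRB stood at 17.5, 15.5 and 15.6 TPM in females 1, 3 and 4, against 12.1, 15.6 and 11.6 TPM in males 1, 4 and 5. Males 1 and 5 were the lowest, while male 4 lay among the females.

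**Figure D1:**
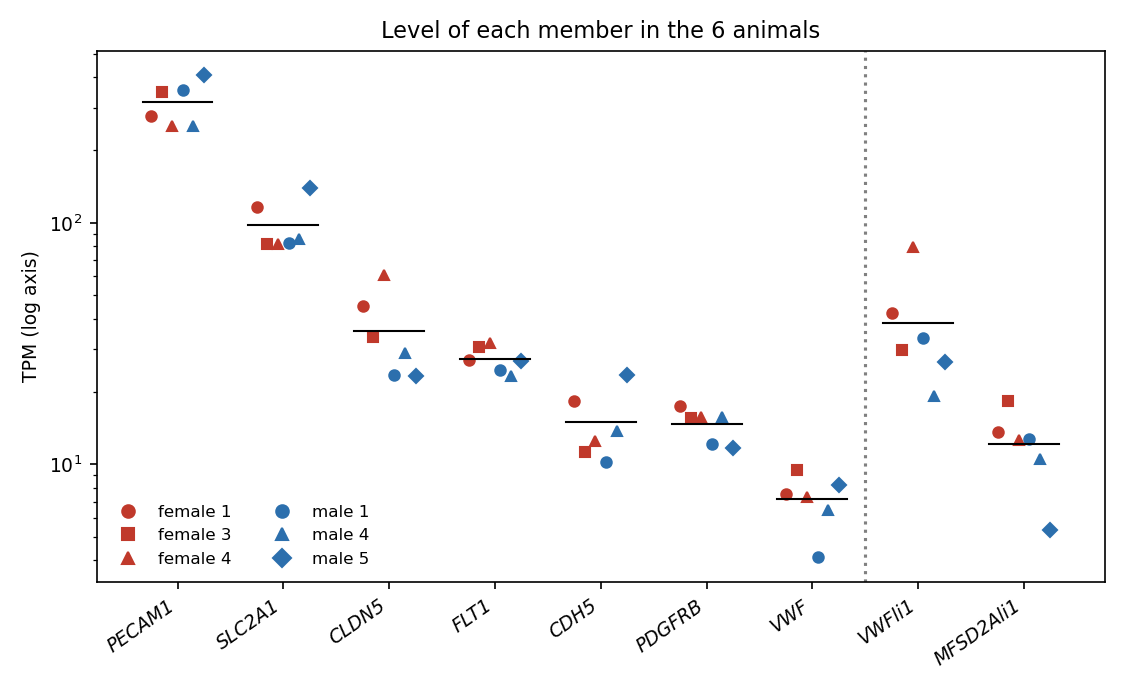
Level of each member in each animal, in TPM on a log axis, with females in red, males in blue, a symbol for each animal number and a line at the mean of 6 animals. The copies VWFli1 and MFSD2Ali1 stand to the right of the dotted line, and MFSD2A, listed at 0 in all animals, is not drawn. PECAM1 and SLC2A1 lie above the other members in every animal, and the 3 females lie above the 3 males for CLDN5.

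Neighbours in this order were compared within animals. The difference in log2(TPM + 1) between neighbouring genes was tested by an exact two-sided paired permutation of the 6 animals, with adjustment over 7 pairs by the Benjamini-Hochberg method. The pairs were taken from the order of the means in the same animals, and the p-values take no account of that choice. The higher gene of the pair exceeded the lower in 6 of 6 animals for PECAM1 over SLC2A1, SLC2A1 over CLDN5, FLT1 over PDGFRB and CDH5 over VWF. Each of these 4 pairs had p = 0.03125 by the exact permutation test, the smallest value that 6 animals allow, and an adjusted p of 0.04375. The pair of VWF and MFSD2A was in that adjustment but tests nothing, since any gene above 0 exceeds one listed at 0. Over the other 6 pairs alone, a choice made after the data were seen, the adjusted p of the 4 pairs by the exact permutation test was 0.0469. CLDN5 exceeded FLT1 in 4 of 6 animals, by 0.30 ± 0.44 on the log2 scale (SD, n = 6, exact permutation test, adjusted p = 0.219). On the log2 scale PDGFRB came before CDH5, in 4 of 6 animals, by 0.019 ± 0.50 (SD, n = 6, exact permutation test, adjusted p = 1). These 2 pairs did not differ beyond their spread.

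Against PDGFRB in the same animal, SLC2A1 was 5.23 to 11.9 times, CLDN5 1.85 to 3.88 times and FLT1 1.48 to 2.30 times as high in TPM. CDH5 lay close to PDGFRB, with a ratio above 1 in 2 of 6 animals and a range of 0.728 to 2.02. VWF was below PDGFRB in every animal, at 0.339 to 0.702 of its TPM. The summed TPM of the 7 endothelial members found was 35.2 ± 10.7 times the PDGFRB level (SD, n = 6), from 26.3 in male 4 to 54.1 in male 5. PECAM1 made up 56.3% to 71.0% of that sum. Without PECAM1 the ratio was 12.7 ± 3.17 (SD, n = 6), from 10.1 in male 4 to 18.9 in male 5.

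The place of PECAM1 at the top of the order depended on the measure taken from the tables. Each table also gives coverage, the mean read depth over a locus. Within a library, TPM divided by coverage took a common value (within 1%) in 49.6% to 55.9% of the loci above 0, and fell below it by more than 1% in at most 0.00989% of them. Coverage multiplied by that common value, here called scaled coverage, is on the scale of TPM, and it was added after the data were seen. For SLC2A1 and CLDN5 the mean TPM and scaled coverage were equal, and for PDGFRB and CDH5 they differed by factors of 1.04 and 1.19. The TPM of FLT1 was 2.90 times, that of VWF 3.14 times and that of PECAM1 15.6 times its scaled coverage. Only 2.86% of the genes with at least 1 TPM had a larger factor than PECAM1.

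By scaled coverage PECAM1 had a mean of 20.2 ± 2.82 (SD, n = 6), with 21.0, 24.6 and 16.6 in females 1, 3 and 4 against 19.3, 18.2 and 21.6 in males 1, 4 and 5. It then ranked below SLC2A1 and CLDN5 in 6 of 6 animals, and above PDGFRB in 6 of 6. FLT1, at 9.44 ± 1.02 (SD, n = 6), lay below PDGFRB in 6 of 6 animals, so the order of these genes turned. Both neighbour pairs with PECAM1 gave an adjusted p of 0.04375 by the exact permutation test, and 0.0469 without the pair that holds MFSD2A. The sum of the endothelial members was 12.9 ± 3.24 times PDGFRB on this scale (SD, n = 6), and PECAM1 made up 9.14% to 15.1% of it. Why the measures differ at a locus was not tested.

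**Figure D2:**
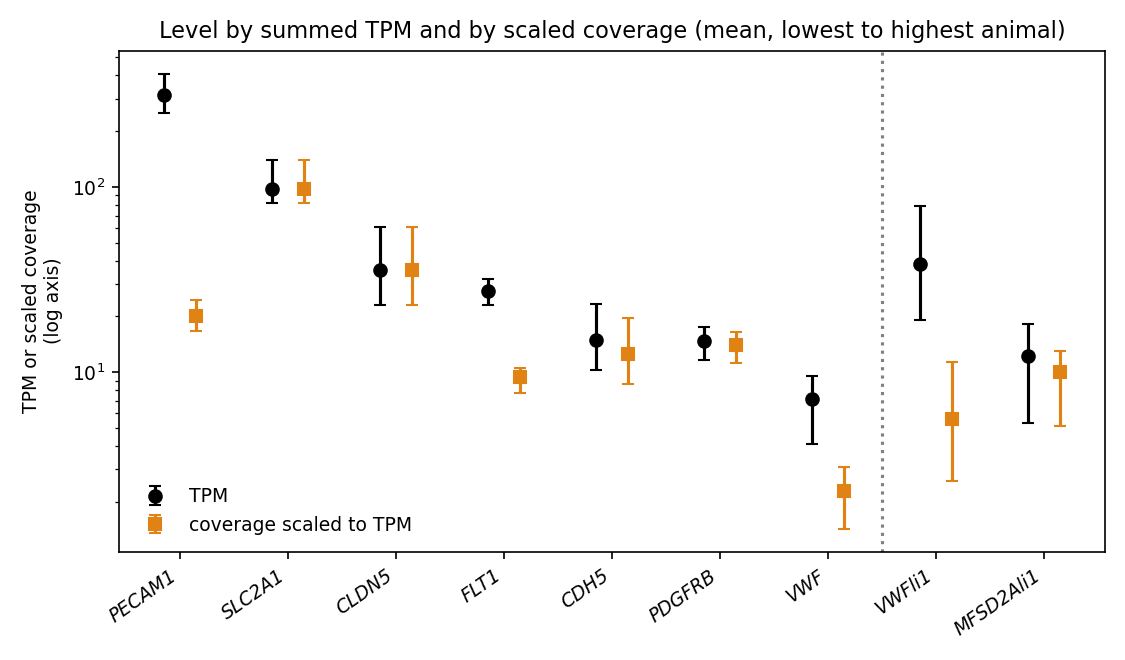
Mean level of each member and copy by summed TPM (black circles) and by coverage scaled to TPM (orange squares), on a log axis, with bars from the lowest to the highest of the 6 animals. PECAM1 drops from 316 to 20.2 and FLT1 from 27.3 to 9.44, while SLC2A1 and CLDN5 have the same values by both measures.

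MFSD2A encodes a lysophospholipid transporter that carries docosahexaenoic acid into the brain and restrains vesicular transport in brain endothelium. The gene of that name lies on the minus strand of chromosome 9 (77866015 to 77923244), with coverage listed at 0 in all animals. The copy MFSD2Ali1, on the minus strand of chromosome 7 (50193310 to 50211435), was measured in every library. MFSD2Ali1 stood at 13.6, 18.2 and 12.6 TPM in females 1, 3 and 4, against 12.8, 10.5 and 5.32 TPM in males 1, 4 and 5. Male 5 was the lowest and female 3 the highest, and male 1 lay between the females. By scaled coverage the sexes did not overlap, with 11.02 to 13.1 in the females and 5.13 to 9.99 in the males, and female 1 was the highest. Which of the loci corresponds to MFSD2A of other mammals was not tested, and an exact 0 in these tables may be a failed estimate.

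VWF also had a copy. VWFli1, on an unplaced contig, had 42.4, 29.8 and 79.2 TPM in females 1, 3 and 4, against 33.2, 19.2 and 26.5 TPM in males 1, 4 and 5. VWFli1 exceeded VWF in every animal, by 2.97 times in male 4 to 10.8 times in female 4. On scaled coverage the same ratio was 1.15 to 5.81. VWF and VWFli1 summed gave 25.6 to 37.4 TPM among males, below the 39.3 to 86.5 TPM of the females. Neither of these loci separated the sexes alone, and 4.92% of all single genes tested were higher in all females. How alike the sequences of VWF and VWFli1 are, and whether they share reads, was not tested.

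The members did not share a common profile over the animals. On the log2(TPM + 1) scale, male 5 was the highest animal for 3 of the 7 measured members (PECAM1, CDH5 and SLC2A1) and the lowest for 2 (CLDN5 and PDGFRB). Female 4 was the highest for CLDN5 and FLT1 and the lowest for PECAM1 and SLC2A1. Male 1 was the lowest for CDH5 and VWF. CLDN5 had the widest range, 1.35 on the log2 scale, and FLT1 the narrowest, 0.44. The SD of CLDN5 on this scale, 0.54, was larger than that of 89.3% of the 3833 named genes whose mean TPM was within 2-fold of its own, and that of FLT1, 0.17, was larger than 9.01% of 3907.

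CDH5 and SLC2A1 moved in parallel, a pair chosen after their values were seen. SLC2A1 ranged 1.70-fold and CDH5 2.29-fold over the animals, while the ratio of SLC2A1 to CDH5 stayed between 5.92 and 8.03. CLDN5 took another course, with a ratio of CLDN5 to CDH5 between 0.987 in male 5 and 4.87 in female 4. Male 5, the animal at one end of both genes, also had the largest share of TPM without strand, 7.88%, whose part in these values was not tested.

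**Figure D3:**
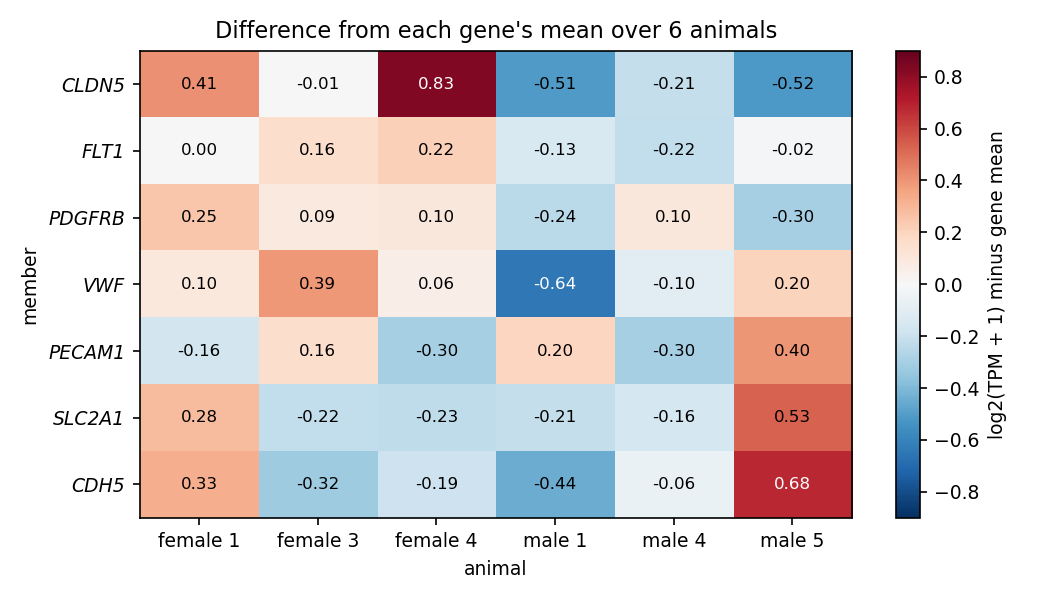
Difference of each measured member in each animal from the mean of that gene over the 6 animals, on the log2(TPM + 1) scale, with red above and blue below the mean. SLC2A1 and CDH5 are high in female 1 and male 5, whereas CLDN5 is high in females 1 and 4 and low in the males.

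Over the genes of 18 fixed lists with a mean of at least 1 TPM, the centred profile nearest to that of CLDN5 belonged to ROBO4, an endothelial guidance receptor, at a root mean square distance of 0.14 on the log2 scale. COX4I2, a subunit of cytochrome c oxidase used as a pericyte marker, followed at 0.25 and ENG (endoglin, a TGF-beta co-receptor of endothelium) at 0.25. The median distance of the 121 candidates was 0.58. For PDGFRB the nearest were VEGFA at 0.13, SLC7A5 (the large neutral amino acid transporter LAT1) at 0.14 and NOTCH3, a receptor of pericytes and smooth muscle, at 0.14, with a median of 0.40. These are distances over 6 libraries that all genes share, given as a description. A gene without variation would lie at 0.49 from CLDN5 but at 0.20 from PDGFRB. The nearest genes to PDGFRB were thus not much nearer to it than a flat profile.

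Between the sexes, 0 of the 7 members tested passed an adjusted p of 0.1 by limma with Benjamini-Hochberg adjustment, where 0.0143% of 27996 autosomal genes passed. This fit of log2(TPM + 1) took genes that reached 0.1 TPM in 3 or more animals, which MFSD2A did not. The adjusted p-values of the members by limma lay between 0.929 and 0.982. At an unadjusted limma p under 0.05, 1 of the 7 members was counted, CLDN5, where 5.02% of the autosomal genes were. Females did not overlap males and were higher for 2 of the 7, CLDN5 and FLT1, where this held for 4.84% of the autosomal genes, and 0 were higher in all males, where this held for 4.97%. Of the 7 members, 4 had a higher mean in females, where 46.7% of autosomal genes did. Their median difference was 0.25, beside −0.031 for all autosomal genes.

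For CLDN5 the females averaged 46.5 ± 13.6 TPM (SD, n = 3), against a male mean of 25.1 ± 3.26 TPM (SD, n = 3). The female minus male difference was 0.83 on the log2 scale (standard error 0.24, 95% confidence interval 0.27 to 1.38, limma adjusted p = 0.929). It ranked 226 by p-value among the autosomal genes. Since TPM and scaled coverage were equal for CLDN5, the log2 difference was also 0.83 on that scale. When 1 animal was omitted at a time, the difference was lowest, 0.62, without female 4 and highest, 1.04, without female 3, and the adjusted p by limma was 0.429 or more under every alternative tried. The summed levels of 7 of the 16 other lists did not overlap between the sexes, and those of 9 did. Of all single genes tested, 4.92% were higher in all females and 4.93% in all males. No such share was computed for sums of genes, so the count of lists has no background of its own. Females were higher in the blood and oligodendrocyte lists, in the other endothelial identity genes (311 to 380 TPM against 252 to 303 TPM), the other pericyte genes (79.8 to 97.4 TPM against 70.4 to 72.7 TPM), the smooth muscle genes (20.1 to 31.5 TPM against 12.2 to 16.3 TPM) and the VEGF, PDGF, angiopoietin and Notch list (189 to 218 TPM against 155 to 176 TPM). Males were higher in the perivascular fibroblast genes (51.3 to 77.6 TPM against 24.8 to 41.3 TPM). When genes were left out singly, a check added after the data were seen, 4 of these separations were lost. The sums overlapped without any 1 of ENG, EGFL7 or PODXL for endothelial identity, MCAM or ZIC1 for pericytes, SMTN for smooth muscle and DCN for fibroblasts. Of the 12 blood genes fixed, 8 were found and 4 tested, all 4 with a higher female mean, and HBE1 was at 0. HBQ1 (log2 difference 4.52) and HBG (4.35) were called by limma, each with an adjusted p of 0.00983, where 0.0143% of autosomal genes were called. Without the mean-variance trend (limma adjusted p = 0.223) and on scaled coverage (limma adjusted p = 0.147) both calls were lost, with log2 differences on scaled coverage of 4.42 for HBQ1 and 4.403 for HBG. Of the 8 oligodendrocyte genes, 5 were found and 0 called, with a summed level of 551 to 696 TPM in each female but 166 to 372 TPM in each male. The part of any of these in the CLDN5 values was not tested.

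For the other members the confidence interval of the difference spanned 0. The log2 difference of PDGFRB was 0.29 (95% confidence interval −0.24 to 0.82, limma adjusted p = 0.929), with a female mean of 16.2 ± 1.10 TPM (SD, n = 3) and a male mean of 13.1 ± 2.18 TPM (SD, n = 3). FLT1 differed by 0.25 (−0.17 to 0.67) and VWF by 0.37 (−0.43 to 1.16). CDH5 differed by −0.12 (−0.89 to 0.66), SLC2A1 by −0.11 (−0.68 to 0.46) and PECAM1 by −0.20 (−0.74 to 0.34). The interval of VWF and, on the side of the males, that of CDH5 include a difference of the size measured for CLDN5. Without male 5, the differences of CDH5 and SLC2A1 were 0.19 and 0.13, so their direction rested on that animal, and without female 3 that of CDH5 was 0.013. That of VWF was 0.14 without male 1 and 0.16 on scaled coverage. The difference of PECAM1 was 0.056 on scaled coverage. FLT1 no longer separated the sexes on that scale, with a difference of 0.17.

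Among the copies, VWFli1 had a difference of 0.83 (standard error 0.36, 95% confidence interval 0.021 to 1.64, limma adjusted p = 0.770 over the genes of unplaced contigs), with overlapping sexes. At an unadjusted limma p under 0.05, 6.01% of the 1498 genes on contigs were counted. MFSD2Ali1 had a difference of 0.64 (standard error 0.35, 95% confidence interval −0.15 to 1.43, limma adjusted p = 0.929), and of 0.59 on scaled coverage (limma adjusted p = 0.917).

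**Figure D4:**
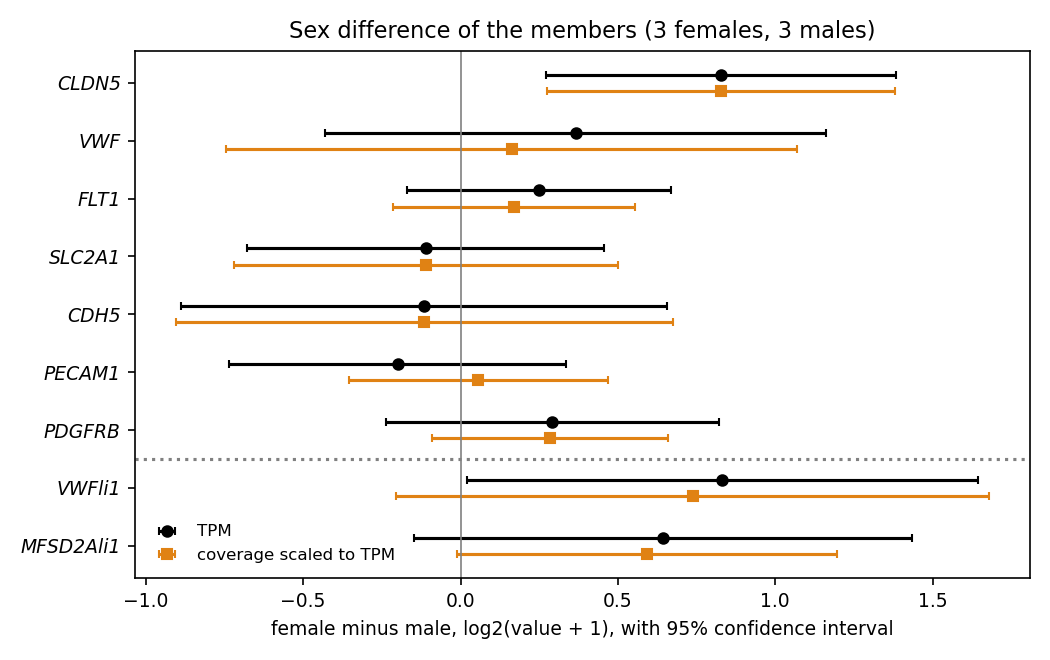
Female minus male difference in log2(value + 1) with its 95% confidence interval from limma, by TPM (black circles) and by scaled coverage (orange squares), for the 7 measured members and, below the dotted line, the 2 copies. CLDN5 has the only interval among the members that lies wholly above 0, and its adjusted p was 0.929.

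A further 119 genes of vessels, barrier and perivascular cells were fixed in 10 lists. Of these, 95 were found by name and 91 entered the fit, and 0 were called by limma at an adjusted p under 0.1, where 0.0165% of all 30238 genes tested were. At an unadjusted limma p under 0.05, 6 (6.59%) had a higher female level and 2 a higher male level, where 2.45% and 2.58% of all genes tested did. Groups did not overlap for 11 genes higher in females (12.1%) and 8 higher in males (8.79%), where 4.92% and 4.93% of all genes tested did so. The lists were chosen with earlier results of these data known.

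Of 22 other endothelial identity genes, 20 were found and 19 tested, 12 with a higher female mean, 7 with a higher male mean and a median female minus male difference of 0.085. The sexes did not overlap for 3 of them, all higher in females, where 4.92% of all genes tested did so. EGFL7, a secreted endothelial factor, had the highest mean TPM at 75.7, followed by EPAS1 (HIF-2 alpha) at 62.9 TPM and PODXL (podocalyxin) at 36.3 TPM, and ITM2A was listed at 0. By scaled coverage this order turned, with a mean of 13.6 for EGFL7 below 53.1 for EPAS1 and 32.8 for PODXL. ROBO4 was at 19.9, 18.4 and 32.5 TPM in females 1, 3 and 4, against 10.1, 16.2 and 10.6 TPM in males 1, 4 and 5. ENG was at 18.6, 24.0 and 35.4 TPM in females and 15.9, 15.5 and 14.4 TPM in males. Both were named for their small p and as nearest profiles to CLDN5, so their likeness to it is no separate evidence. The log2 differences were 0.87 for ROBO4 and 0.68 for ENG, with a limma adjusted p of 0.929 for each.

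VEGFA acts on endothelium through KDR (VEGFR2), and FLT1 competes for it. KDR, named after its values were seen, was at 4.74, 5.02 and 3.94 TPM in females 1, 3 and 4, against 4.13, 11.2 and 13.3 TPM in males 1, 4 and 5. Males 4 and 5 stood above the other 4 animals. The ratio of FLT1 to KDR in TPM was 5.72 to 8.04 in the females and male 1 at 5.96, against 2.07 and 2.01 in males 4 and 5. By scaled coverage FLT1 was 2.12 to 2.68 times KDR in the females and 2.25 times in male 1, but 0.726 and 0.778 of it in males 4 and 5.

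The list of VEGF, PDGF, angiopoietin and Notch ligands and receptors had 15 of 17 genes found and tested, 14 with a higher female mean and a median difference of 0.42. VEGFA had a mean of 56.3 TPM, PDGFA 34.5 TPM and PDGFC 26.01 TPM. By scaled coverage PDGFA, at 2.53, lay below PDGFC, at 12.7, and PDGFB, at 9.42. FLT4 (VEGFR3) was at 4.33 to 4.87 TPM in each female but 1.17 to 2.01 TPM in each male (log2 difference 1.19, limma adjusted p = 0.929), and PDGFC at 31.0 to 31.3 TPM and 16.8 to 23.3 TPM (0.57, limma adjusted p = 0.929). PDGFB, the ligand of PDGFRB and also named after its values were seen, was at 13.96 to 14.5 TPM in the females and 14.5, 10.2 and 7.40 TPM in males 1, 4 and 5. Its level was 0.635 to 1.20 times that of PDGFRB.

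Of 10 other junction genes, 6 were found and tested, with a median difference of 0.052. CTNNB1 (beta-catenin) had a mean of 144 TPM, JAM3 (a junctional adhesion molecule) 78.9 TPM and TJP1 (the scaffold ZO-1) 34.4 TPM. JAM3 differed by 0.68 (limma adjusted p = 0.929). Among 14 other barrier transporters, 12 were found and 10 tested, with a median of 0.12. SLC3A2, the heavy chain of LAT1, led at 136 TPM, with 81.8 TPM for LRP1 and 70.5 TPM for TFRC (the transferrin receptor). By scaled coverage TFRC, at 26.6, lay below SLC7A5, at 41.6. Other brain cells also express several of these genes.

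Of 5 transcytosis and fenestration genes, 4 were found and 3 tested, with a median of 0.11. CAVIN1 had a mean of 23.5 TPM, CAVIN2 6.50 TPM and CAV2 5.22 TPM, all parts of caveolae. By scaled coverage CAVIN1, at 4.11, came last of the 3. PLVAP, which forms the diaphragms of fenestrated capillaries and is low in barrier endothelium, was listed at 0 in 5 animals and at 0.0996 TPM in female 3. It was named after its values were seen.

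The Wnt and norrin list, the signals that induce the barrier, had 10 of 12 genes found and tested, with a median of 0.093. APCDD1 had a mean of 160 TPM, NDP (norrin) 75.1 TPM and WNT7B 36.0 TPM. As for PECAM1, the TPM of several of these genes was far above scaled coverage, by 5.37 times for APCDD1 and 10.6 times for WNT7B, and in the lists above by 5.56 times for EGFL7 and 13.6 times for PDGFA. By scaled coverage NDP, at 75.1, lay above APCDD1, at 29.8. NDP was at 51.6 to 69.7 TPM in each female, below the 73.6 to 105.6 TPM of the males (log2 difference −0.49, limma adjusted p = 0.770).

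On the perivascular side, 10 of 15 other pericyte genes were found and tested, 5 with a higher mean in each sex and a median of 0.22. MCAM (CD146) had a mean of 20.9 TPM, HIGD1B 12.1 TPM and ZIC1 9.88 TPM, while by scaled coverage HIGD1B, at 7.17, and ZIC1, at 5.86, lay below FOXC1, at 9.55, a gene named after its values were seen. MCAM was at 36.3, 29.5 and 19.7 TPM in females 1, 3 and 4, against 21.5, 10.5 and 7.91 TPM in males 1, 4 and 5 (log2 difference 1.11, limma adjusted p = 0.929). FOXC1 went the other way, at 6.05 to 8.91 TPM in the females and 8.97 to 14.4 TPM in the males. The sexes did not overlap for 3 genes of this list higher in females and 2 higher in males, where 4.92% and 4.93% of all genes tested did so. Of 8 smooth muscle genes, 4 were found and tested, all with a higher female mean and a median of 0.71, led by DES (desmin) at 7.85 TPM, SMTN (smoothelin) at 6.04 TPM and CNN1 (calponin) at 5.10 TPM, although by scaled coverage SMTN, at 3.13, lay below CNN1. ACTA2, MYH11, TAGLN and MYL9 are among the names not found, so the main contractile markers were not analysed here.

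Perivascular fibroblast genes went the other way, with 5 of 6 higher in the male mean and a median of −0.56. DCN (decorin) was at 5.60, 3.80 and 4.24 TPM in females 1, 3 and 4, against 31.9, 30.4 and 10.8 TPM in males 1, 4 and 5. Its difference was −2.07 (standard error 0.42, limma adjusted p = 0.929). PDGFRA had a mean of 11.03 TPM and COL1A2 9.66 TPM. By scaled coverage DCN, at 6.12, and PDGFRA, at 4.67, lay below COL1A2, at 7.66. Of 10 basement membrane genes, 8 were found and tested, with a median of 0.18, led by AGRN (agrin) at 67.7 TPM, LAMA5 at 35.7 TPM and NID1 at 32.1 TPM, where by scaled coverage LAMA5, at 28.2, lay below NID1.

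**Figure D5:**
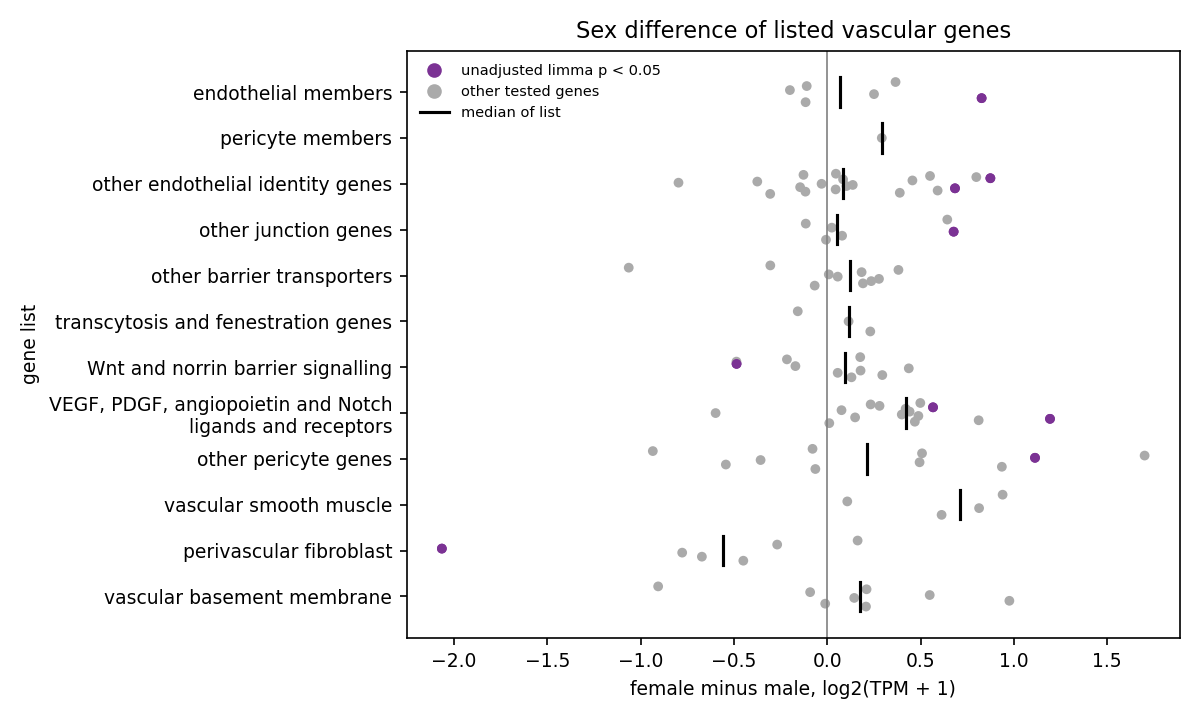
Female minus male difference in log2(TPM + 1) of each tested gene by list, with a black bar at the median of the list and genes with an unadjusted limma p under 0.05 in purple. List medians lie between −0.56 for perivascular fibroblast genes and 0.71 for smooth muscle genes, and 0 of the genes drawn were called at an adjusted p under 0.1.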

How the data were processed

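The members and gene lists were chosen with earlier results of these data known. The authors mapped polyadenylated RNA reads of 6 animals to TS_3.0 with HISAT2 2.2.1, then assembled and measured transcripts with StringTie 2.2.1 against a merged annotation, without pooling animals. The deposited tables give coverage, FPKM and TPM for 95863 to 95865 loci. The deposited TPM values sum to between 950532 and 971492, and the deposited coverage is a signal that takes no account of library size. Counts are not among the values, so the count test of the authors could not be fitted and the number of reads behind a value is unknown.

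Rows of a gene ID on a chromosome were summed, and the male-only segments of chromosomes X and 26 were left out. Differences in log2(TPM + 1) were tested with limma 3.58.1 (R 4.3.3) with a mean-variance trend, without covariates, for genes that reached 0.1 TPM in 3 or more animals. P-values were adjusted within autosomes, chromosome X and contigs. The script was tested on simulated data. Neighbours in level were compared over 7 pairs, since 2 members were not found. The replicates are separate animals. The level of 1 blood gene is not reported here.

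Named genes are all members, the 3 highest of each list, those listed at 0, up to 2 of a list with the smallest limma p under 0.05, and the 3 nearest profiles to CLDN5 and PDGFRB; exceptions are marked in the text, and most list names not found are given as counts. Alternatives were other pseudocounts, filters, scalings, FPKM, rows kept apart, limma without the trend, joint adjustment, a block on animal number and each animal left out. Scaled coverage, the ratio without PECAM1 and the order without MFSD2A were added after the data were seen. Python 3.11.15, numpy 2.4.6, pandas 2.3.3, scipy 1.17.1 and matplotlib 3.10.9 were used.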

Additional observations from a re-analysis of the deposited data

How the results depend on the processing

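Under all 19 alternatives to the limma fit, 0 members were called, and the smallest adjusted p of any member was 0.429. Of 133 alternative differences of single members, 127 kept their direction. The 6 that turned were CDH5 with the replicate block on animal number (0.32), without female 3 and without male 5 (range of −0.37 to 0.19 with each animal left out), SLC2A1 with the block (0.21) and without male 5 (−0.28 to 0.13), and PECAM1 on scaled coverage (0.056). The count of autosomal genes called, 4, was 0 without the mean-variance trend, 0 on scaled coverage, 2 with the block, and 2 to 5 with each animal left out (2 without female 1 and 2 without male 5). The cause was not tested. The ratio of the endothelial sum to PDGFRB, 35.2, was 12.7 without PECAM1 and 12.9 on scaled coverage, and the difference of mean log2(TPM + 1) between the lists was 0.58, with MFSD2A at 0 in the mean. Animal numbers 1 and 4 occur in both sexes, but nothing in the labels ties these animals, and the deviations of same-numbered animals correlated at −0.0048 and 0.038. For neighbour pairs of genes above 0, 4 had an adjusted p under 0.1 by the exact permutation test under each alternative, at the smallest p possible, so the count shows little of stability. That adjusted p was 0.0938 with each animal left out. The pairs were not always the same 4. On scaled coverage 1 was shared with the order by TPM over all animals, and 2 without female 3, female 4, male 1 or male 4, where CDH5 and PDGFRB changed places. The pair of VWF and MFSD2A could not fail and shows no stability. The tables give no read counts, and among the measured members coverage was lowest for VWF, at 1.95 to 3.89.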

Other observations

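The 3 highest means were 894 TPM for SLC1A2, 560.0 TPM for SLC1A3 and 248 TPM for GFAP among astrocyte genes, with 912 TPM for SYT1 after the neuronal SNAP25 and SLC17A7. They were 202 TPM for MAG, 103 TPM for OLIG1 and 64.9 TPM for MOG among oligodendrocyte genes, and 91.7 TPM for C1QB, 51.0 TPM for CSF1R and 43.3 TPM for C1QA among microglial genes. By scaled coverage these 3 orders turned. MAG, at 46.2, and MOG, at 20.4, lay below OLIG1, at 102.9, and OLIG2, at 56.1, a gene named after its values were seen. C1QB, at 25.8, lay below CSF1R, at 48.6, and C1QA, at 33.6, and SLC1A2, at 475, below SLC1A3, at 560. In the choroid plexus list AQP1 had 3.30 TPM, FOLR1 3.11 TPM and TTR 1.93 TPM, and in the blood list AHSP followed HBQ1 and HBG at 11.1 TPM. Astrocyte genes (6 of 8 found, 6 tested) had a median female minus male difference of −0.078 on the log2 scale, and ALDH1L1 was the gene with an unadjusted limma p under 0.05 (difference 1.09, limma adjusted p = 0.929). Neuronal genes (7 of 8 found, 6 tested) had a median of 0.021, microglial genes (6 of 8 found and tested) −0.16 and oligodendrocyte genes (5 of 8 found and tested) 0.76. Choroid plexus genes (5 of 8 found, 4 tested) had mean levels of 3.30 TPM or less, and their sum was 6.39 to 11.2 TPM in each female and 3.23 to 12.3 TPM in each male. FOLR1 differed by −1.72 (limma adjusted p = 0.929). Among oligodendrocyte genes MAG differed by 1.68 (limma adjusted p = 0.905) and OLIG1 by 0.71 (limma adjusted p = 0.929). NEFL and OTX2 were listed at 0 in every animal.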
